A study of Homo sapiens with 9 samples.

Results

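The inhibitors of cyclin-dependent kinases (CDKs) were followed in H1299 cells after depletion of FIBP by siRNA. They were taken by gene symbol from the transcript tables: CDKN1A, CDKN1B and CDKN1C of the Cip/Kip family, CDKN2A, CDKN2B, CDKN2C and CDKN2D of the INK4 family, and CDKN3, a phosphatase that acts on CDKs. These 8 of 59948 genes held 54 of the 244443 transcript rows. H1299 is a long-used cell line from a human non-small cell lung carcinoma. RNA-seq of poly(A)-selected RNA was done on 3 samples per group, labelled as replicates. It was done 48 h after transfection with a scrambled siRNA (Scramble) or with 1 of 2 siRNAs against FIBP (Si-FIBP#1 and Si-FIBP#2). Every group was therefore transfected, all samples come from 1 cell line, and depletion was transient.

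CDK inhibitors slow the cell cycle by binding CDKs or their complexes with cyclins. INK4 proteins (p16INK4a from CDKN2A, p15 from CDKN2B, p18 from CDKN2C and p19 from CDKN2D) bind CDK4 and CDK6 and keep them from their D cyclins, which leaves the retinoblastoma protein able to hold back E2F transcription factors. Cip/Kip proteins (p21 from CDKN1A, p27 from CDKN1B and p57 from CDKN1C) bind cyclin-CDK complexes, above all those of CDK2. CDKN3 removes the activating phosphate from the T loop of CDK2 and CDK1. CDKN2A also encodes ARF, which is read from another first exon and another frame.

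The values are FPKM (fragments mapped to a transcript, scaled by its length in kilobases and by the depth of the library), summed over the transcripts of a gene, so that levels can be compared between genes per length. FIBP itself was at 77.74 to 88.38 FPKM in Scramble and at 4.30 to 8.21 FPKM in the 6 depleted samples. Of 6 genes listed as markers for a carcinoma line, KRT8, KRT18 and the mesenchymal marker VIM were at 67.15 FPKM or more in every sample. KRT19, EPCAM and CDH1 stayed under 1 FPKM. All 3 of the former were lower in every depleted sample than in Scramble, KRT18 at 43.8% and 36.7% of its Scramble mean, KRT8 at 68.8% and 71.2% and VIM at 71.4% and 61.5%. The 6 markers of differentiated lung epithelium, NKX2-1 included, stayed under 1 FPKM, as did 5 of 6 markers of blood and endothelial cells. The sixth, the lysosomal gene CD68, was at 31 to 66.96 FPKM, higher in every depleted sample than in Scramble. The part of these marker differences in the results below was not tested. Estimated depth was 20150000 to 23850000 fragments per library.

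For reference, 300 bases of RefSeq promoter sequence (GRCh38.p14, 250 before the start site and the first 50 of the transcript) are printed for the genes on which the results turn. CDKN1A differed between the siRNAs, CDKN2A has 2 separate promoters, and CDKN2C, CDKN2D and CDKN3 were lower with both siRNAs. Capitals mark exact matches, on either strand, to 5 motifs: an E2F site (TTCCCGC), the CHR element of genes expressed late in the cell cycle (TTTGAA), the CCAAT box (CCAAT), the GC box bound by Sp1 (GGGCGG) and the TATA box (TATAAA). Neighbouring GC boxes overlap in CDKN1A and in CDKN2C.
CDKN1A (chr6:36678464-36678763, plus strand): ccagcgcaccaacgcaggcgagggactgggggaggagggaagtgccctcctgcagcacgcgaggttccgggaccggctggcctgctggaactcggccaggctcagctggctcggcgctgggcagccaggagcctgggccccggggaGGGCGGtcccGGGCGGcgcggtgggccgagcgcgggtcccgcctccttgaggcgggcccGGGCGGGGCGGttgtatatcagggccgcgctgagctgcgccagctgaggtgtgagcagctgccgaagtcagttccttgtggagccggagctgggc
CDKN2A, exon 1β start (chr9:21995275-21995574, minus strand): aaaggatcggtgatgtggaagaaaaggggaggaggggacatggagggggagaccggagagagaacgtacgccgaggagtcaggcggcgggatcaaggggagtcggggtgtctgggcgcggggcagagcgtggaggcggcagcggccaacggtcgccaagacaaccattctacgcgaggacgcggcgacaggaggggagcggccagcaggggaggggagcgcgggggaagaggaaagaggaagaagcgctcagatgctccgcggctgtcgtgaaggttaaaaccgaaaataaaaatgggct
CDKN2A, exon 1α start (chr9:21974808-21975107, minus strand): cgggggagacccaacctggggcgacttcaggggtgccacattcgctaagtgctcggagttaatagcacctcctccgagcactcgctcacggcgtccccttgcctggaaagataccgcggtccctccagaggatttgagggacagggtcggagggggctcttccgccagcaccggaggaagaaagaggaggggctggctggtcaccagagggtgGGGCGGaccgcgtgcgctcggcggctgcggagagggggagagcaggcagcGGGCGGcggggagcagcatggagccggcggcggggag
CDKN2C (chr1:50968456-50968755, plus strand): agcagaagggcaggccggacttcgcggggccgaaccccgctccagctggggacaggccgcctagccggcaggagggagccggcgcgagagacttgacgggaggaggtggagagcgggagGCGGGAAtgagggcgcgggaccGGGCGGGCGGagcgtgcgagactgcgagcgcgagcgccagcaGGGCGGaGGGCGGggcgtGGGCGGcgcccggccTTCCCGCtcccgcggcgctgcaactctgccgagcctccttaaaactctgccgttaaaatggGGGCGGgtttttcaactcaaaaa
CDKN2D (chr19:10568930-10569229, minus strand): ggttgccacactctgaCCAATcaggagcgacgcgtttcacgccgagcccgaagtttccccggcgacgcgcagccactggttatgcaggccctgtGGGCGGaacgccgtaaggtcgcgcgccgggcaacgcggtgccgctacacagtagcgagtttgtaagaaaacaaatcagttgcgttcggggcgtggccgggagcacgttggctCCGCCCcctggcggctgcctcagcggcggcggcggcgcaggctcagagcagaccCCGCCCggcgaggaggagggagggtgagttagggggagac
CDKN3 (chr14:54396757-54397056, plus strand): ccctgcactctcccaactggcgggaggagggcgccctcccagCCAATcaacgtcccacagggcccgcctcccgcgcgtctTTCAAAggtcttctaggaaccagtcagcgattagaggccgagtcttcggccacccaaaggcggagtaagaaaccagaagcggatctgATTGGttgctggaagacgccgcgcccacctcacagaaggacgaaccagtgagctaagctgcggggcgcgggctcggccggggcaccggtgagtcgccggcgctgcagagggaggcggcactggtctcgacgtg

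RefSeq gave 10 such windows for 7 of the 8 genes; CDKN1C was not among them. The E2F letters were found in 6.55% of 35116 windows of all genes and, among the inhibitors, in CDKN2C alone, which held them 131 and 34 bases before its start. The CHR letters were found in 15.2% of all windows and in that of CDKN3, 170 bases before the start. CCAAT boxes were found in 34.6% of all windows and in 4 of the 10 windows of the inhibitors, from 4 of the 7 genes. CDKN1B, whose window is not printed, held 3, at 174 and 50 bases before its start and from base 31 of its transcript. CDKN3 held 2, at 208 and 83 bases before its start, and CDKN2D held 1, at 234 bases. CDKN2C held 1, at 95 bases before the start of another window that is not printed. GC boxes, present in 45% of all windows, numbered, in the windows printed here, 4 in CDKN1A, 6 in CDKN2C, 3 in CDKN2D and 2 at the exon 1α start of CDKN2A, and there was none at its exon 1β start. The TATA letters, present in 11.5% of all windows, were in none of the 10. These matches describe the letters of each window only.

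In Scramble the inhibitor genes spanned a wide range. CDKN2A is counted whole here, though most of its RNA was of the ARF kind, as given below. CDKN2A was the most abundant at 183 ± 16.0 FPKM (SD, n = 3), followed by CDKN3 (75.3 ± 6.27), CDKN1A (48.2 ± 1.28), CDKN2C (41.1 ± 2.59) and CDKN1B (40.2 ± 0.584). CDKN2D (26.9 ± 0.621 FPKM), CDKN2B (10.8 ± 1.57 FPKM) and CDKN1C (0.667 ± 0.337 FPKM) were lower. Neighbours in this order did not overlap, except CDKN2C and CDKN1B. The order was another in each depleted group. With Si-FIBP#1 CDKN1B came next after CDKN2A, and CDKN1A ranked 4, overlapping CDKN3. With Si-FIBP#2 CDKN1A came next and CDKN1B after it, with no overlap between them. The sum over the 8 genes was 418.79 to 437.86 FPKM in Scramble, whereas Si-FIBP#1 gave 337.83 to 345.79 FPKM and Si-FIBP#2 gave 316.37 to 330.13 FPKM.

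Compared with Scramble, Si-FIBP#1 lowered 4 of the 8 genes (CDKN1A, CDKN2C, CDKN2D and CDKN3) and raised 3 (CDKN1B, CDKN1C and CDKN2B) at an adjusted p below 0.05 (limma on log2(FPKM + 1), Benjamini-Hochberg over 14970 genes). Of all genes tested, 19.9% were lower and 27.9% higher by the same rule. All 4 fell by more than 2-fold, which 3.11% of all genes did. Without CDKN1A, which was not chosen independently of its values, CDKN2C, CDKN2D and CDKN3 remain in that count. Si-FIBP#2 lowered CDKN2A, CDKN2C, CDKN2D and CDKN3 (17.7% of all genes were lower) and raised CDKN1A, CDKN1B and CDKN1C (31.1% were higher). Of those 4, CDKN2C and CDKN3 fell by more than 2-fold, which 2.14% of all genes did. CDKN1C reached the minimum of 1 FPKM in 3 samples only through the depleted samples, so it could enter the test only by being higher there, and its place in these counts supports nothing. Among the 7 others the counts were 2 higher and 4 lower with each siRNA. The median difference of the 8 genes for Si-FIBP#1 was -0.486, and that for Si-FIBP#2 was -0.0888, on the log2 scale, beside 0.0734 and 0.111 for all genes tested. Without CDKN1C the medians were -1.06 and -0.354. Without CDKN1A, which was singled out for its values, they were 0.0875 and -0.354. The counts were then 3 genes higher and 3 lower for Si-FIBP#1 and 2 higher and 4 lower for Si-FIBP#2. CDKN1C is still among the higher genes in these figures, and the even split and the 0.0875 for Si-FIBP#1 depend on it. The median for Si-FIBP#1 thus rests on which of these genes are counted. Both comparisons use the same Scramble samples.

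The median of all genes moved from 0.111 to 0.00937 with Si-FIBP#2 when libraries were scaled by their median ratio. On that scale the rises of CDKN1A (log2 difference 0.06, adjusted p = 0.432) and CDKN1B (0.14, adjusted p = 0.0566) with Si-FIBP#2 and that of CDKN2B with Si-FIBP#1 (0.31, adjusted p = 0.0555) did not pass the test. In RNA from whole cultures, fewer cells in the phase of the cycle that expresses a gene and less RNA per cell cannot be told apart.

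CDKN1A (ENSG00000124762, chr6:36676460-36687339, plus strand, in GENCODE 29 on GRCh38, as for all positions of genes below) encodes p21, an inhibitor that can arrest the cycle in G1. Scramble samples had 47.29, 47.55 and 49.63 FPKM. Si-FIBP#1 samples had 24.21, 21.68 and 21.96 FPKM, and Si-FIBP#2 samples 52.21, 57.18 and 54.31 FPKM. Every Si-FIBP#1 sample was below every Scramble sample, and every Si-FIBP#2 sample was above. The mean with Si-FIBP#1 was 47.0% of that in Scramble, a log2 difference of -1.06 (SE 0.0602, adjusted p = 1.38e-06). These low values are part of the difference between the siRNAs for which CDKN1A was singled out, so this p is no independent support. With Si-FIBP#2 the mean was 113% of Scramble, a log2 difference of 0.18 (SE 0.0602, adjusted p = 0.0351). These values are the other side of that difference, so this p is no independent support either. That small rise depended on single libraries and on the settings. The adjusted p was 0.0922, 0.0986 or 0.0516 without Scramble replicate 1, 2 or 3, and 0.0872 or 0.0761 without Si-FIBP#2 replicate 2 or 3. It was 0.432 with median ratio scaling, 0.0588 with a replicate block and 0.057 with eBayes without trend. The direct difference of Si-FIBP#2 from Si-FIBP#1 was 1.24 on the log2 scale (95% interval 1.1 to 1.37). It was known when CDKN1A was chosen and is given as a description without a test.

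One transcript carried this pattern. ENST00000244741, which has 3 exons and encodes p21, made up 89.3% to 97.3% of the CDKN1A value. Scramble samples had 43.70, 42.47 and 44.91 FPKM, Si-FIBP#1 samples 22.50, 21.09 and 20.72 FPKM and Si-FIBP#2 samples 47.91, 51.87 and 49.31 FPKM. Its log2 difference was -0.99 with Si-FIBP#1 (adjusted p over 47662 transcripts = 2.52e-05) and 0.18 with Si-FIBP#2 (adjusted p = 0.0641). ENST00000478800, a 2-exon transcript of 616 nt with no annotated reading frame, was at 1.48 to 3.66 FPKM in Scramble. With Si-FIBP#1 it was at 1.57, 0.01 and 0.00 FPKM (log2 difference -1.44, adjusted p = 0.0316), of which the first lies within the Scramble range, and with Si-FIBP#2 at 3.19 to 4.54 FPKM. As for the gene, the p-values of these 2 transcripts are no independent support, with either siRNA. Another CDKN1A transcript that reached 1 FPKM, ENST00000405375, was at 0.00 to 1.68 FPKM and overlapped between all groups.

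CDKN1B (chr12:12715058-12722371, plus strand), whose product p27 restrains CDK2 in resting cells, was higher with both siRNAs. Scramble samples had 39.57, 40.27 and 40.73 FPKM, Si-FIBP#1 samples 54.03, 55.85 and 59.53 FPKM and Si-FIBP#2 samples 46.71, 50.38 and 47.24 FPKM. The 3 groups did not overlap. The log2 difference was 0.48 for Si-FIBP#1 (SE 0.0543, adjusted p = 9.01e-05) and 0.25 for Si-FIBP#2 (SE 0.0543, adjusted p = 0.0038). Nearly all of it was ENST00000228872, the 3-exon transcript that encodes p27, at 98.2% or more of the gene in every sample. p27 is known to be controlled mainly by protein turnover, which these data do not measure.

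As CDKN1A and CDKN1B moved apart with Si-FIBP#1, their ratio changed. CDKN1A was 54.14% to 54.92% of the sum of both genes in Scramble samples, 26.95% to 30.94% in Si-FIBP#1 samples and 52.78% to 53.48% in Si-FIBP#2 samples. All 3 Si-FIBP#1 samples stood apart from the other 6, and Si-FIBP#2 samples were all just below Scramble. CDKN1A was singled out for its difference between the siRNAs, so these shares and the sums that follow are descriptions only. Summed over the Cip/Kip family, levels were 87.57 to 90.67 FPKM in Scramble, whereas Si-FIBP#1 gave 79.37 to 83.04 FPKM and Si-FIBP#2 gave 100.46 to 108.83 FPKM.

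CDKN1C (chr11:2883213-2885773, minus strand), an imprinted gene whose product p57 limits growth in the embryo, was near the floor of detection. Scramble samples had 0.71, 0.98 and 0.31 FPKM, Si-FIBP#1 samples 1.24, 1.84 and 1.55 FPKM and Si-FIBP#2 samples 1.54, 1.27 and 1.81 FPKM. All 6 depleted samples were above Scramble. The log2 difference was 0.62 with each siRNA (SE 0.179), given as a description with no test, because the gene passed the filter only through its level in depleted samples. With a pseudocount of 0.1 in place of 1 the difference was 1.19 with each siRNA, as the pseudocount weighs on so low a gene. Its transcripts ENST00000440480 and ENST00000380725 stayed at or below 1.20 FPKM and were too low to be tested.

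CDKN2A (chr9:21967753-21995301, minus strand), with the RNA of both products counted, had the highest level of the inhibitor genes in every group. Scramble samples had 199.61, 180.20 and 167.90 FPKM, Si-FIBP#1 samples 200.87, 196.58 and 183.66 FPKM and Si-FIBP#2 samples 145.36, 137.11 and 144.50 FPKM. Si-FIBP#1 samples overlapped Scramble (log2 difference 0.09, 95% interval -0.0595 to 0.235, adjusted p = 0.299). With Si-FIBP#2 every sample was lower (log2 difference -0.35, SE 0.0656, adjusted p = 0.00167).

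By first exon, the CDKN2A RNA was nearly all of the ARF kind. The 5 transcripts that start at exon 1β summed to 150.12 to 181.10 FPKM in Scramble, whereas Si-FIBP#1 gave 170.38 to 189.66 FPKM and Si-FIBP#2 gave 124.80 to 134.25 FPKM, which was 87.8% to 94.4% of the gene. The 4 transcripts that start at exon 1α, the first exon of p16INK4a, reached 0.25 to 1.76 FPKM in sum, 0.127% to 1.05% of the gene. Of these only ENST00000380151, annotated as a target of nonsense-mediated decay, reached 1 FPKM. The remaining 5 transcripts start in or after exon 2, which both products share, and summed to 9.45 to 17.52 FPKM. ENST00000530628 and ENST00000579755, both counted with exon 1β, carried most of the gene. Their annotated starts lie downstream of the window printed above for exon 1β, within which only the low ENST00000498628 of this class starts. ENST00000530628 was at 77.60 to 95.53 FPKM in Scramble and 58.32 to 67.78 FPKM with Si-FIBP#2 (log2 difference -0.43, adjusted p = 0.00863). ENST00000579755 was at 69.10 to 82.09 FPKM in Scramble and 57.16 to 63.17 FPKM with Si-FIBP#2 (log2 difference -0.33, adjusted p = 0.036). The second call was lost without Scramble replicate 1 or 2 (adjusted p = 0.107 and 0.108), without Si-FIBP#1 replicate 2 (0.0562) and without Si-FIBP#2 replicate 1, 2 or 3 (0.06, 0.0652 and 0.109). ENST00000578845, ENST00000498628 and ENST00000470819 overlapped between all groups.

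CDKN2B (chr9:22002903-22009363, minus strand) lies next to CDKN2A and encodes p15, an inhibitor induced by TGF-β in many epithelial cells. Scramble samples had 12.32, 10.86 and 9.19 FPKM, Si-FIBP#1 samples 14.80, 13.55 and 14.41 FPKM and Si-FIBP#2 samples 14.91, 11.18 and 12.61 FPKM. Si-FIBP#1 samples were all above Scramble (log2 difference 0.38, SE 0.119, adjusted p = 0.0247), and Si-FIBP#2 samples overlapped it (0.24, 95% interval -0.0283 to 0.503, adjusted p = 0.125). The call with Si-FIBP#1 was lost without Scramble replicate 2 or 3 (adjusted p = 0.0547 and 0.089) and without Si-FIBP#1 replicate 1 or 3 (0.0704 and 0.0629). Its longest transcript was clearer. ENST00000276925 had 7.75, 7.49 and 7.23 FPKM in Scramble samples, 11.63, 11.52 and 10.85 FPKM in Si-FIBP#1 samples and 10.96, 8.69 and 10.25 FPKM in Si-FIBP#2 samples, with no overlap between Scramble and either siRNA. Its log2 difference was 0.54 (adjusted p = 0.00512) and 0.36 (adjusted p = 0.029), the second lost without Scramble replicate 1, 2 or 3 (0.0568, 0.078 and 0.0857) and without Si-FIBP#2 replicate 1 or 3 (0.0846 and 0.0857). ENST00000579591, a retained intron at 0.19 to 3.55 FPKM, and ENST00000380142, at 0.84 to 2.27 FPKM, overlapped with Scramble in both depleted groups and did not pass. CDKN2A and CDKN2B share 70 runs of 31 bases, 1.56% of those of CDKN2A. Both are overlapped on the other strand by CDKN2B-AS1, which averaged 5.89 FPKM (Scramble), 3.87 FPKM (Si-FIBP#1) and 5.11 FPKM (Si-FIBP#2). The use of strand in counting is not given in the sources used here, so shared reads cannot be told apart.

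CDKN2C (chr1:50960745-50974633, plus strand), which encodes p18, fell with both siRNAs. Scramble samples had 38.07, 42.31 and 42.78 FPKM, Si-FIBP#1 samples 14.03, 13.47 and 15.69 FPKM and Si-FIBP#2 samples 20.27, 17.89 and 18.72 FPKM. The groups did not overlap. Means were 35.1% and 46.2% of Scramble, log2 differences of -1.45 (SE 0.0783, adjusted p = 1.05e-06) and -1.07 (SE 0.0783, adjusted p = 6.73e-06). The fall was uneven between its transcripts. ENST00000396148, which starts 11 bases from the RefSeq start site of the window with the E2F letters, was at 27.69, 26.89 and 26.66 FPKM in Scramble. With Si-FIBP#1 it was at 6.53, 5.26 and 5.92 FPKM (log2 difference -2.03, adjusted p = 2.47e-05), and with Si-FIBP#2 at 9.98, 7.13 and 8.70 FPKM (log2 difference -1.56, adjusted p = 8.9e-05). ENST00000371761, which starts further downstream, was at 8.65, 13.59 and 14.09 FPKM in Scramble and at 6.67 to 8.91 FPKM with Si-FIBP#1 (log2 difference -0.59, adjusted p = 0.0456) and 8.50 to 9.56 FPKM with Si-FIBP#2 (-0.38, adjusted p = 0.174). Its call with Si-FIBP#1 was lost without any 1 of 7 libraries, with the adjusted p between 0.0573 and 0.138. The share of ENST00000396148 in the gene went from 66.2% in Scramble to 41.1% and 45.2%, with no overlap (exact two-sided permutation p = 0.1 for each siRNA, the smallest that 3 against 3 allows). A 7606 nt assembled transcript added 0.63 to 1.54 FPKM.

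CDKN2D (chr19:10566462-10569059, minus strand), which encodes the INK4 protein p19, fell as well. Scramble samples had 27.09, 26.19 and 27.38 FPKM, Si-FIBP#1 samples 12.58, 12.54 and 10.71 FPKM and Si-FIBP#2 samples 14.03, 13.94 and 16.83 FPKM. Both depleted groups were below Scramble and apart from each other. Log2 differences were -1.11 (SE 0.0884, adjusted p = 9.94e-06) and -0.81 (SE 0.0884, adjusted p = 7.19e-05). Both transcripts fell. ENST00000335766 went from a mean of 17.7 FPKM to 9.25 and 11.0 FPKM (adjusted p = 0.00421 and 0.0162), the second call being lost without Scramble replicate 2 (0.0584). ENST00000393599 went from 9.21 FPKM to 2.69 and 3.94 FPKM (adjusted p = 0.00193 and 0.0102). Summed over the genes of the INK4 family, levels were 247.25 to 277.09 FPKM in Scramble. Si-FIBP#1 gave 224.47 to 242.28 FPKM and Si-FIBP#2 gave 180.12 to 194.57 FPKM, mostly CDKN2A in each case. As 87.8% to 94.4% of CDKN2A was of the ARF kind, this sum is mostly ARF RNA and not RNA of INK4 proteins.

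CDKN3 (chr14:54396849-54420218, plus strand), a dual-specificity phosphatase whose mRNA peaks late in the cell cycle, fell about as far. Scramble samples had 73.20, 70.43 and 82.41 FPKM, Si-FIBP#1 samples 24.03, 27.41 and 30.32 FPKM and Si-FIBP#2 samples 35.10, 27.42 and 32.65 FPKM. Depleted samples were all below Scramble and overlapped each other. Log2 differences were -1.44 (SE 0.109, adjusted p = 7.25e-06) and -1.23 (SE 0.109, adjusted p = 2.1e-05). The transcript with the largest fall in FPKM was ENST00000335183, an 8-exon transcript that starts within the promoter window printed above. It was at 42.20, 35.89 and 48.39 FPKM in Scramble, at 9.50, 7.73 and 6.21 FPKM with Si-FIBP#1 (log2 difference -2.30, adjusted p = 0.000236), and at 14.72, 7.91 and 11.90 FPKM with Si-FIBP#2 (-1.81, adjusted p = 0.000881). Its share of the gene went from 55.8% to 29.4% and 35.7%, without overlap (exact two-sided permutation p = 0.1 for each, the smallest possible). ENST00000458126 averaged 2.22 FPKM in Scramble and 0.817 and 0.410 FPKM with the siRNAs. It reached the minimum of 1 FPKM in 3 samples only through Scramble, where it was high. Its values are therefore given as a description with no test. ENST00000395577, a 6-exon transcript that starts within the gene, did not pass in either comparison. It was at 3.31, 10.98 and 10.27 FPKM in Scramble, 4.84 to 11.29 FPKM with Si-FIBP#1 and 5.78 to 7.23 FPKM with Si-FIBP#2. The other 5 CDKN3 transcripts that reached 1 FPKM did not pass either. Of these, ENST00000543789, ENST00000555837, ENST00000556102 and ENST00000611205 also start within the window printed for CDKN3, as does ENST00000458126. A start in that window therefore did not set apart the transcripts that fell. ENST00000555837 was listed at 0 in 5 of 9 samples and reached 14.34 FPKM in another, and the assembled 916 nt transcript was at 0.00 to 13.92 FPKM within Scramble alone, so the division between CDKN3 transcripts is less certain than their sum.

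Counted over transcripts, 28 of the 54 rows reached 1 FPKM in any sample, 24 were tested and 4 were listed at 0 throughout. With Si-FIBP#1 2 of the 24 were higher (10.7% of all 47662 transcripts tested) and 8 lower (10% of all). With Si-FIBP#2 2 were higher (10.6% of all) and 7 lower (8.46% of all). Without CDKN1A, 6 of 22 were lower with Si-FIBP#1 and 7 of 22 with Si-FIBP#2. All these lower counts hold ENST00000458126 of CDKN3, which passed the filter only through Scramble, so its place in them supports nothing. Those higher were ENST00000228872 of CDKN1B and ENST00000276925 of CDKN2B in both comparisons. With Si-FIBP#2 neither passed with median ratio scaling (adjusted p = 0.111 and 0.107) or with eBayes without trend (0.083 and 0.0502).

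CDKN1A was chosen because it differs between the siRNAs, so it is left out here. Set against each other, the siRNAs differed for 4 of the 7 other genes, 2 higher with Si-FIBP#2 (9.57% of all genes were) and 2 lower (5.8% of all). CDKN2A was lower with Si-FIBP#2 (log2 difference -0.44, SE 0.0656, adjusted p = 0.00279), and so was CDKN1B (-0.23, SE 0.0543, adjusted p = 0.0219). CDKN2C (0.38, SE 0.0783, adjusted p = 0.0123) and CDKN2D (0.30, SE 0.0884, adjusted p = 0.0493) were higher with Si-FIBP#2, their fall from Scramble being smaller there. No difference passed for CDKN2B (-0.14, 95% interval -0.408 to 0.124), CDKN3 (0.21, -0.0329 to 0.454) or CDKN1C (-0.0006, -0.402 to 0.401). FIBP differed by 0.13 (95% interval -0.277 to 0.539). The CDKN1B call was lost without Si-FIBP#1 replicate 2 or 3 (adjusted p = 0.0625 and 0.0682) and without Si-FIBP#2 replicate 1 or 3 (0.0705 and 0.0791), and the CDKN2C call without Si-FIBP#1 replicate 2 (0.0504). The CDKN2D call was lost without any library other than Si-FIBP#2 replicate 2, with the adjusted p between 0.067 and 0.156. Among transcripts, of which 1.4% in all were higher with Si-FIBP#2, those of CDKN1A are left out as well. ENST00000530628 (-0.54, adjusted p = 0.0177) and ENST00000579755 (-0.44, adjusted p = 0.0465) of CDKN2A were lower (1.06% of all). The 2 CDKN2A calls were lost in 4 and 8 of the 9 fits that left out 1 library.

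**Figure D1:**
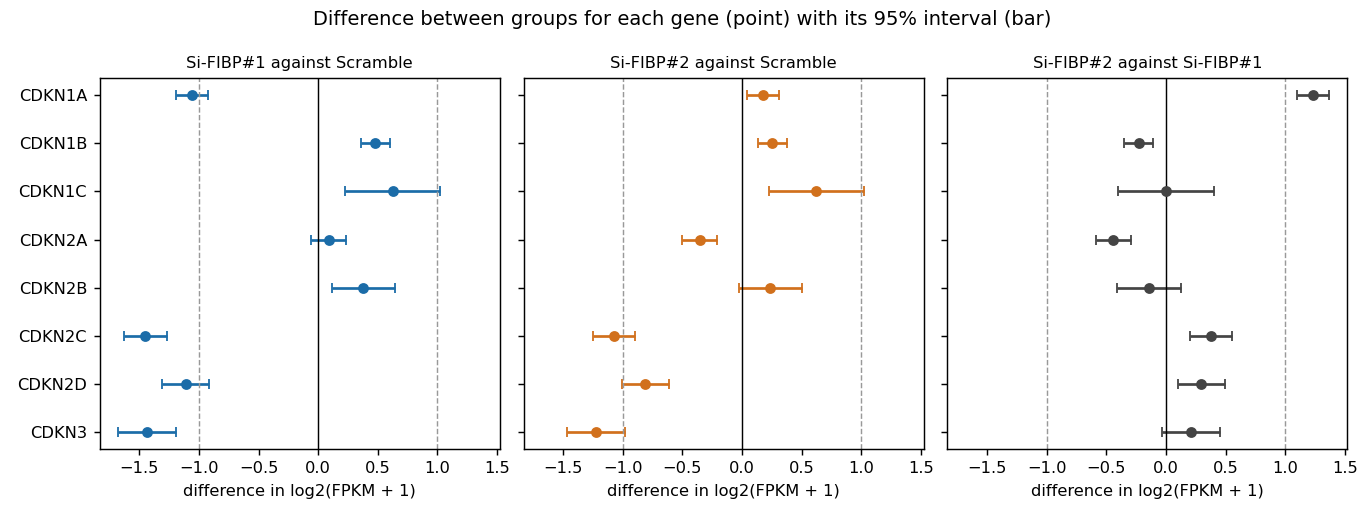
Difference in log2(FPKM + 1) (horizontal axes) with its 95% interval for each CDK inhibitor gene, in 1 panel for each siRNA minus Scramble and 1 for Si-FIBP#2 minus Si-FIBP#1, with dashed lines at 2-fold. CDKN2C, CDKN2D and CDKN3 are to the left of 0 with both siRNAs, and CDKN1A is to the left with Si-FIBP#1 (-1.06) and just to the right with Si-FIBP#2 (0.18).

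The genes most like each inhibitor over the 9 samples were taken from 10008 genes with a mean of at least 5 FPKM, by Pearson's r of log2(FPKM + 1). These r values are descriptions over 9 samples that fall into 3 groups and share libraries. As the genes were picked by r, a group pattern like that of their inhibitor follows from the choice. Closest to CDKN1A were AGFG1 (r = 0.9876), NELFCD (0.9861), PRKCD (0.9839), PXDC1 (0.9802) and SMTN (0.9794). NELFCD, a subunit of the negative elongation factor of RNA polymerase II, was at 60.17 to 64.47 FPKM in Scramble, whereas Si-FIBP#1 gave 28.20 to 29.19 FPKM and Si-FIBP#2 gave 57.24 to 65.95 FPKM. In all 5, Si-FIBP#1 samples were below Scramble and Si-FIBP#2 samples overlapped it. Closest to CDKN2C were SPC25 (0.9977), a kinetochore protein, CEP55 (0.9966), which acts in abscission, and RNASEH2A (0.9964). CDKN2D was most like MOK (0.9939), ASF1B (0.9918), a histone chaperone, and BUB1B (0.9909), a spindle checkpoint kinase, and CDKN3 most like TARDBP (0.9971), KIF11 (0.9966), a mitotic kinesin, and ATAD2 (0.9956). CDKN1B was most like the mitochondrial MT-ATP8 (0.9954), EID1 (0.9926) and WASF1 (0.9891), all 3 highest with Si-FIBP#1. CDKN2A was most like TUBB3 (0.9921), PLXNA1 (0.9883) and NDUFB10 (0.9645), all lower with Si-FIBP#2 than in Scramble. CDKN2B was most like AC136475.2 (0.9644), KIAA0100 (0.9605) and SIGIRR (0.9485), and CDKN1C most like MXRA7 (0.9657), KDM6A (0.9489) and GSK3B (0.946).

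Most of the genes for kinases and cyclins that the inhibitors bind or act through were lower, with exceptions. In this and the following lists the shares to compare with are those of all genes, namely 19.9% lower and 27.9% higher for Si-FIBP#1, against 17.7% lower and 31.1% higher for Si-FIBP#2. Of 15 tested CDK and cyclin genes, 10 were lower and 1 higher with Si-FIBP#1 (median log2 difference -0.956), and 10 were lower and 3 higher with Si-FIBP#2 (median -0.579). CDK4, which INK4 proteins bind, did not pass with Si-FIBP#1 (log2 difference -0.03, adjusted p = 0.688) and was lower with Si-FIBP#2 (-0.58, adjusted p = 2.35e-05). CDK1, the kinase of mitotic entry, had the largest mean fall over both siRNAs on the log2(FPKM + 1) scale. In FPKM the low CCNA1 fell further, to 23.9% and 14.0% of its 2.97 FPKM in Scramble, against 29.2% and 38.9% for CDK1. CDK4 and CCNA1 are named after their values were seen. CCNA1 was at 2.77 to 3.23 FPKM in Scramble and at 0.90 FPKM or less in every depleted sample. It passed the filter only through Scramble, so its place among the lower genes with each siRNA supports nothing. CDK1 went from 114 FPKM to 33.4 and 44.4 FPKM (log2 difference -1.75 and -1.35, adjusted p = 4.36e-07 and 1.71e-06). CCNE1, the cyclin that activates CDK2 at the start of S phase, had the largest rise with each, from 11.2 FPKM to 25.2 and 20 FPKM (1.11 and 0.77, adjusted p = 9.86e-05 and 0.000891). Of 13 retinoblastoma family and E2F genes, 9 were lower and 1 higher with each siRNA (median -0.534 and -0.405). E2F2, an activating E2F, fell from 6.38 FPKM to 1.37 and 1.5 FPKM, and E2F5, which acts with the p130 pocket protein, rose from 26.8 FPKM to 44.8 and 48.9 FPKM.

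Of 15 genes listed under the turnover of p21, p27 and p57, 9 were lower and 4 higher with Si-FIBP#1 (median -0.394). With Si-FIBP#2 7 were lower and 3 higher (median -0.0834). CDC20, an activator of the anaphase-promoting complex, fell from 172 FPKM to 45.9 and 59.3 FPKM. FBXO4, an F-box protein on this list, rose from 8.05 FPKM to 15.3 and 15.5 FPKM. Whether it acts on p21, p27 or p57 was not tested. SKP2, the F-box protein that marks p27 for degradation, was chosen after its values were seen: it fell from 12.4 FPKM to 9.21 and 8.26 FPKM (adjusted p = 0.0028 and 0.000476).

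Regulators of CDKN1A were called in both directions. Of 28 tested, 12 were lower and 6 higher with Si-FIBP#1 (median -0.104), and 12 lower and 5 higher with Si-FIBP#2 (median -0.117). The lower genes include TP73, at 1.56 to 1.87 FPKM in Scramble and 0.96 FPKM or less in every depleted sample. As TP73 passed the filter only through Scramble, its place in these counts supports nothing. TGFBR2, the type II receptor of TGF-β, rose from 17.9 FPKM to 46.3 and 48.7 FPKM. EGR1, an immediate early transcription factor, fell from 8.96 FPKM to 2.09 and 4.89 FPKM. In the direct comparison of the siRNAs 2 of the 28 were higher and 2 lower, beside 9.57% and 5.8% of all genes. Of 14 polycomb genes that silence CDKN2A or CDKN1C in other cells, 3 were lower and 4 higher with each siRNA (median 0.113 and 0.0781), shares near those of all genes. EZH2, the methyltransferase of this system, fell from 36.7 FPKM to 18.5 and 26.7 FPKM, and RING1 rose from 23.0 FPKM to 40.1 and 39.1 FPKM.

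Genes around the inhibitors were called in both directions. Of 14 tested neighbours and antisense genes, 6 were lower and 3 higher with Si-FIBP#1 (median -0.194), and 5 lower and 4 higher with Si-FIBP#2 (median -0.189). GPR19, which lies near CDKN1B, fell from 5.48 FPKM to 1.27 and 1.31 FPKM while CDKN1B was higher. Near CDKN1C, SLC22A18 rose from 8.81 FPKM to 21.8 and 27.3 FPKM and PHLDA2 fell from 51.1 FPKM to 21.8 and 29.8 FPKM. CDKN2B-AS1 was lower with Si-FIBP#1 (log2 difference -0.51, adjusted p = 0.0124) and did not pass with Si-FIBP#2 (-0.17, adjusted p = 0.342). SRSF3, near CDKN1A, went from 236 FPKM to 136 and 173 FPKM (adjusted p = 0.00028 and 0.00794). Near CDKN2D, AP1M2 fell from 22.2 FPKM to 10.3 and 14.4 FPKM and KEAP1 rose from 46.9 FPKM to 56.2 FPKM with each siRNA. CNIH1 near CDKN3 rose from 106 FPKM to 133 and 138 FPKM, and APOLD1 near CDKN1B fell from 5.70 FPKM to 2.50 and 3.68 FPKM. FAF1 near CDKN2C was higher with Si-FIBP#2 than in Scramble (0.25, adjusted p = 0.0334; with Si-FIBP#1 -0.07, adjusted p = 0.504). MTAP and DMRTA1 near CDKN2A, KRI1 near CDKN2D and LINC01588 passed in neither comparison. MTAP was at 22.4, 20.9 and 19.1 FPKM in the 3 groups.

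An siRNA can also lower mRNAs that pair with positions 2 to 8 of its guide strand. With the antisense strand of each siRNA taken as the guide, the letters that pair with Si-FIBP#1 are TTCAGCA and those that pair with Si-FIBP#2 are TTTGCTA. Each was found in the longest annotated 3′ UTR of 16.9% of 11642 tested protein-coding genes (GENCODE 29). Neither was found in any annotated transcript of CDKN1A, CDKN1B, CDKN1C, CDKN2A, CDKN2C, CDKN2D or CDKN3 that reached 1 FPKM. Both were found once in the 3′ UTR of CDKN2B transcript ENST00000276925, which was higher with both siRNAs. The sites are shown with the pairing letters in capitals and 10 bases on each side.
Si-FIBP#1, from nucleotide 1772: tttttagttgTTCAGCAactgtcttat
Si-FIBP#2, from nucleotide 3335: gatgtttaaaTTTGCTAgttgcattat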

How the data were processed

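H1299 RNA was poly(A)-selected and sequenced in 3 samples per group, labelled as replicates. The authors aligned reads with HISAT2 and assembled and quantified transcripts with StringTie, per the labels, and deposited FPKM to 2 decimals for Ensembl and newly assembled transcripts. Versions, genome build and annotation are not given in the sources used here. FPKM tables hold no counts, so no counting error is given. Depth, estimated from the steps between low values, was 20150000 to 23850000 fragments. FPKM were summed by gene symbol. Genes at 1 FPKM or more in at least 3 samples were tested on log2(FPKM + 1), so fold changes of low genes are understated, with limma 3.58.1 (trended eBayes, R 4.3.3) in 1 fit of all 9 samples, and likewise transcripts. P-values were adjusted by Benjamini-Hochberg over all features, with a threshold of 0.05, and calls of genes over the whole series also needed a 2-fold change. P-values measure the spread between these samples, which may be technical. In simulated data with normal noise, 200 genes with a mean log2(FPKM + 1) above 2 were changed by 1.5 on the log2 scale. By the rule that needs a 2-fold change, 97.5% were recovered for the first siRNA with Scramble (14586 genes). Recovery was 99% for Si-FIBP#2 with Scramble (14625 genes) and 98% between the siRNAs (14630 genes). Smaller differences, and changes in genes as low as CDKN1C, were not simulated, so these shares do not bear on them. Named genes were the 8 inhibitors with each transcript that reached 1 FPKM, FIBP, the 3 genes (5 for CDKN1A) most like each inhibitor, the largest rise and fall of each list, and the neighbouring and antisense genes that reached 1 FPKM. Another gene fixed as a check, and a list tied to it, are not reported here. Members and lists were chosen with earlier results of these data known. Positions and transcript sequences are from GENCODE 29, which held all 52 Ensembl identifiers, 43 with the same length, and promoters from RefSeq GRCh38.p14. Alternatives were TPM and median ratio scaling, smaller added constants (0.1), other minimum levels (none, or 5 FPKM), fits of the compared groups alone, a replicate block, eBayes without trend, Ensembl transcripts only, and each sample left out.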

Additional observations from a re-analysis of the deposited data

Results flagged for a closer look

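The effects of the siRNAs on 4 of the 7 genes other than CDKN1A differed by the direct comparison of Si-FIBP#2 with Si-FIBP#1 (limma, Benjamini-Hochberg), 2 higher with Si-FIBP#2 beside 9.57% of all genes and 2 lower beside 5.8%. The effect of Si-FIBP#2 minus that of Si-FIBP#1, on the log2 scale, was -0.44 for CDKN2A (adjusted p = 0.00279) and -0.23 for CDKN1B (adjusted p = 0.0219), and 0.38 for CDKN2C (adjusted p = 0.0123) and 0.30 for CDKN2D (adjusted p = 0.0493). Of 18 alternatives, 14 lost the call for CDKN2D, 6 that for CDKN1B and 1 that for CDKN2C. For CDKN1A, chosen for its difference between the siRNAs, this value was 1.24 and is not given as a test. Every Si-FIBP#1 sample was below and every Si-FIBP#2 sample above the Scramble samples. The log2 difference of FIBP from Scramble was -3.50 and -3.37, and the 95% interval of the difference between the siRNAs was -0.277 to 0.539.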

How the results depend on the processing

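Of 429 gene values of the inhibitors under the alternatives, 384 kept direction and side of the threshold, 40 no longer passed and 5 reversed. Of 714 transcript values these were 646, 48 and 15, and 5 newly passed. The cause was not tested. The reversed gene values are all of CDKN1C between the siRNAs, near 0: 0.0289 with TPM scaling, 0.00023 with a pseudocount of 0.1 and -0.0888 to 0.0824 with a sample left out. Among transcripts, the assembled CDKN3 transcript MSTRG.7738.1 reversed with Si-FIBP#1 (-0.0053 with median ratio scaling, -1.20 to 0.75 with a sample left out) and Si-FIBP#2 (-0.785 to 1.17). With a sample left out ENST00000395577 lay between -0.395 and 0.381 (Si-FIBP#1) and between -0.671 and 0.0667 (Si-FIBP#2). Between the siRNAs ENST00000578845 was at -0.0162 with median ratio scaling and -0.146 to 0.19 with a sample left out, and ENST00000555837 at -1.003 to 1.031.

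In the comparison of Si-FIBP#1 with Scramble, of Si-FIBP#2 with Scramble and of both siRNAs, in this order, genes past 2-fold numbered 847, 758 and 84. They numbered 1498, 1411 and 172 with a pseudocount of 0.1, 7146, 7310 and 2302 with no fold threshold, and 849 to 892, 741 to 844 and 75 to 132 with a sample left out (132 without Si-FIBP#2 replicate 2). With Si-FIBP#2 438 were higher and 320 lower, and 335 and 442 with median ratio scaling. Between the siRNAs 40 were higher and 44 lower, 64 and 42 with TPM scaling. Inhibitor genes passing, with CDKN1A counted although it was chosen for the last comparison and with CDKN1C counted although it passed the filter only through depleted samples, numbered 7, 7 and 5 (6 and 6 in the first 2 without CDKN1C), with 3 in the last when only the groups compared were fitted, and 5 to 7, 5 to 7 and 2 to 5 with a sample left out (2 without Si-FIBP#1 replicate 2, and 3 without Si-FIBP#1 replicate 3, Si-FIBP#2 replicate 1 or Si-FIBP#2 replicate 3). Transcript calls past 2-fold numbered 2547, 2085 and 223. The first 2 became 4027 and 3339 with a pseudocount of 0.1 and 1369 and 1104 with a filter of 5 FPKM. All became 9848, 9081 and 1172 with no fold threshold. The last became 102 with no filter, 126 with only the groups compared and 141 with eBayes without trend. With a sample left out they were 2281 to 2577, 1883 to 2204 and 108 to 315. Of the 14 inhibitor transcripts that reached 10 FPKM, 8, 8 and 3 passed, the last with ENST00000244741 of CDKN1A counted, which passed between the siRNAs under every alternative and was not chosen independently of that difference. The second became 5 with eBayes without trend, and the last became 1 with no filter, 5 with a filter of 5 FPKM and 1 with eBayes without trend. With a sample left out they were 7 to 8, 5 to 8 (5 without Scramble replicate 2) and 1 to 3 (1 without Si-FIBP#1 replicate 1, 2 or 3 or Si-FIBP#2 replicate 3).

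Deviations of samples with the same replicate number correlated weakly (-0.0577 to 0.0959), beside -0.138 to 0.0454 for different numbers. Between the siRNAs the same-number values (0.044 to 0.094) were above all others (0.00806 at most), whereas with Scramble they overlapped them. Whether the numbers pair the samples was not tested. With the replicate block, gene calls were 852, 761 and 88, inhibitor genes 7, 6 and 4, transcript calls 2465, 1993 and 148, and inhibitor transcripts 8, 8 and 3. The genes that no longer passed with the block were CDKN1A with Si-FIBP#2 (adjusted p = 0.0588, limma) and CDKN2D between the siRNAs (adjusted p = 0.0819). FPKM carry no counts, so genes near 1 FPKM such as CDKN1C are known least well.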
